A study of Homo sapiens with 20 samples.

Results

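The genes described here are the cytokines, chemokines and receptors that could be recognised by family symbol in the human glioblastoma cell line U-87MG. Members were taken from probe sets with a single gene symbol that began with IL and a digit, CXCL, CXCR, CCL or CCR and a digit, TNFSF, TNFRSF, IFNA, IFNB, IFNG, IFNL, or CSF and a digit. IL1B, IL1RN and IL6 were left out by the same rule. This gave 63 genes of the 11282 named genes measured, each with 1 probe set, and 204 protein-coding symbols of the RefSeq gene table meet the same rule. The other symbols were not analysed here. By role, the members were 7 interleukins, 20 interleukin receptor genes, 9 chemokines, 1 chemokine receptor, 2 ligands and 14 receptors of the tumour necrosis factor (TNF) superfamily, 5 interferon or interferon receptor genes, and 5 colony stimulating factors or their receptors.

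RNA of these cells was measured on Affymetrix arrays after 24 h of treatment. One group received I3P, which is indole-3-pyruvic acid, another HPP, hydroxyphenylpyruvic acid, and a further group PP, phenylpyruvic acid, each at 40 µM. The control group received the solvent DMSO, which was kept at no more than 0.2% of the medium throughout. The compounds share a pyruvic acid side chain on different rings: indole in I3P, unsubstituted phenyl in PP, and phenyl bearing a hydroxyl in HPP. The 4 groups held 5 arrays each, numbered as biological replicates 1 to 5, so that every number held 1 array of each of the 4 groups. The labels do not say what a number stands for beyond that, nor whether arrays of a number shared a culture day. The series concerns AHR, the aryl hydrocarbon receptor, which is a transcription factor that small molecules activate, and the comparisons ask how each compound changed expression at the same dose and time.

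Cytokines are secreted proteins through which cells instruct their neighbours, and chemokines are the subset that draws leukocytes along a gradient. Interleukins of the interleukin-6 type signal through JAK kinases and STAT factors, while interleukin-1 type cytokines and most receptors of the TNF superfamily signal to the transcription factor NF-kB. NF-kB in turn raises several chemokine genes, CXCL8 among them. Glioblastoma cells are known to secrete CXCL8 and CCL2, the attractants of neutrophils and monocytes, and to carry IL13RA2, a decoy receptor for interleukin-13.

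The promoters of the members could be read for 45 of the 63 genes in RefSeq's tables (GRCh38.p14). CCL2, CSF3, IL36B, IL13RA2, TNFRSF10B, TNFRSF10C and TNFRSF10D were among the genes without a window and were not scanned. The 4 windows below are shown because the gene varied between replicate numbers in the test given further on and the 250 bases before its RefSeq start held an NF-kB motif. Each runs 5′ to 3′ on the gene's own strand and ends at the base before the start. Capitals mark matches on either strand to the NF-kB motif GGANNTTCC, the AP-1 motif TGANTCA, the core GCGTG of the site for AHR with its partner ARNT, and the TATA motif TATAAA. No matches overlap each other in these windows.
CXCL8: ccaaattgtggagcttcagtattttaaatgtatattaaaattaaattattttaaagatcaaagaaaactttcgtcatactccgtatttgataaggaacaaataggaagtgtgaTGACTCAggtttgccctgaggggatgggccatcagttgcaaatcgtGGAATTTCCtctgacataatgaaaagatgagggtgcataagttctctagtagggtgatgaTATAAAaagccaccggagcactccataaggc
IFNGR2: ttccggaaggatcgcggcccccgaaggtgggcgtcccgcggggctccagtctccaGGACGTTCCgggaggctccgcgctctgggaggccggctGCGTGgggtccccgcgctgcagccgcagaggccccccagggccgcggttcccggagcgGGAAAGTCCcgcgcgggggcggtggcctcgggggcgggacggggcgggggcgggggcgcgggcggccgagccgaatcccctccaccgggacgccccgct
IL7R: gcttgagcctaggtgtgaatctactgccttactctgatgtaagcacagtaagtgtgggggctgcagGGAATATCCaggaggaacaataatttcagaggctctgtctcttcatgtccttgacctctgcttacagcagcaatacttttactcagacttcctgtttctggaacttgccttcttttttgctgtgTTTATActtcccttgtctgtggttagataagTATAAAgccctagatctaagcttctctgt
TNFRSF9: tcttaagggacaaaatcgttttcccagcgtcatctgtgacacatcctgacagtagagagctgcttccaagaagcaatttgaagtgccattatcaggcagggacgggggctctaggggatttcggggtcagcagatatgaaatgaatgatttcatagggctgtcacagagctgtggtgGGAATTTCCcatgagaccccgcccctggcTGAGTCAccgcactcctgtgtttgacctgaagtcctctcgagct

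The CXCL8 window (chr4:73740319-73740568, plus strand) held an AP-1 match 137 bases, an NF-kB match 91 bases and a TATA match 31 bases before the start. In IFNGR2 (chr21:33403163-33403412, plus strand) NF-kB matches began 195 and 99 bases and the GCGTG core 157 bases before it. IL7R (chr5:35856641-35856890, plus strand) held an NF-kB match at 184 bases and TATA matches at 60 and 29 bases. TNFRSF9 (chr1:7940840-7941089, minus strand) held an NF-kB match at 73 bases and an AP-1 match at 44 bases. Over all 64 windows of the members, GGANNTTCC occurred in 5 (7.81%), against 3.86% of the 34961 windows in the table. TGANTCA occurred in 10 (15.6%, against 6.54%), GCGTG in 20 (31.2%, against 32.2%) and TATAAA in 8 (12.5%, against 10.7%). Windows of the same gene were counted separately and can overlap, and overlapping windows of IL15RA held the same AP-1 match. These are matches of letters and not measured binding.

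All values below are log2 expression values from the robust multi-array average (RMA), and the array medians lay between 9.23 and 9.279. Every probe set of the deposited table had a mean of at least 7.943 and no detection calls were used here, so a low value does not show whether a gene was expressed. Of the 8 glioblastoma and mesenchymal-like markers looked for, 7 were measured, and VIM averaged 13.35, CD44 12.7 and TNC 11.8. NES and GFAP of the same list averaged 8.31 and 8.57. The leukocyte list had 4 of 12 markers measured and the endothelial list 3 of 5. The mean over the leukocyte markers lay between 8.25 and 8.69 with DMSO, 8.43 and 8.68 with I3P, 8.39 and 8.59 with HPP, and 8.40 and 8.70 with PP. Values are compared between arrays for the same gene and never between genes.

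No member passed the test against DMSO with any of the 3 compounds. I3P left 0 of 63 members past an adjusted p of 0.05 (limma, Benjamini-Hochberg over all genes), where 0.0798% of all genes passed. With HPP and with PP the count was also 0 of 63, and 0% of all genes passed. The replicate numbers pair the arrays, as the correlations given under processing show, so the fit was repeated with the number as a block. There, 0 of 63 members passed with I3P against 0.603% of all genes, 0 with HPP against 0.0443%, and 0 with PP against 0%. Taken at an unadjusted p under 0.05 with the block, 9 members were reached with I3P (14.3%, against 11.0% of all genes), 4 with HPP (6.35%, against 4.97%) and 3 with PP (4.76%, against 4.25%).

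Shifts of the members against DMSO were small and of mixed sign. With I3P, 41 of 63 members lay above 0, with a median difference of 0.05 (log2), against a median of 0.000 over all genes. HPP gave the same count, with a median of 0.04, and PP gave 38, with a median of 0.01. Differences ranged from -0.26 to 0.45 with I3P, from -0.25 to 0.45 with HPP and from -0.20 to 0.46 with PP. With the block, the 95% interval of the difference lay inside a 1.5-fold change either way for 56 members with I3P, 58 with HPP and 58 with PP. The corresponding counts without the block were 48, 48 and 47. For those members a larger change lies outside the interval. For the rest the interval reaches past it, as for CCL2 with I3P, whose interval ran from 0.21 to 0.62.

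**Figure D1:**
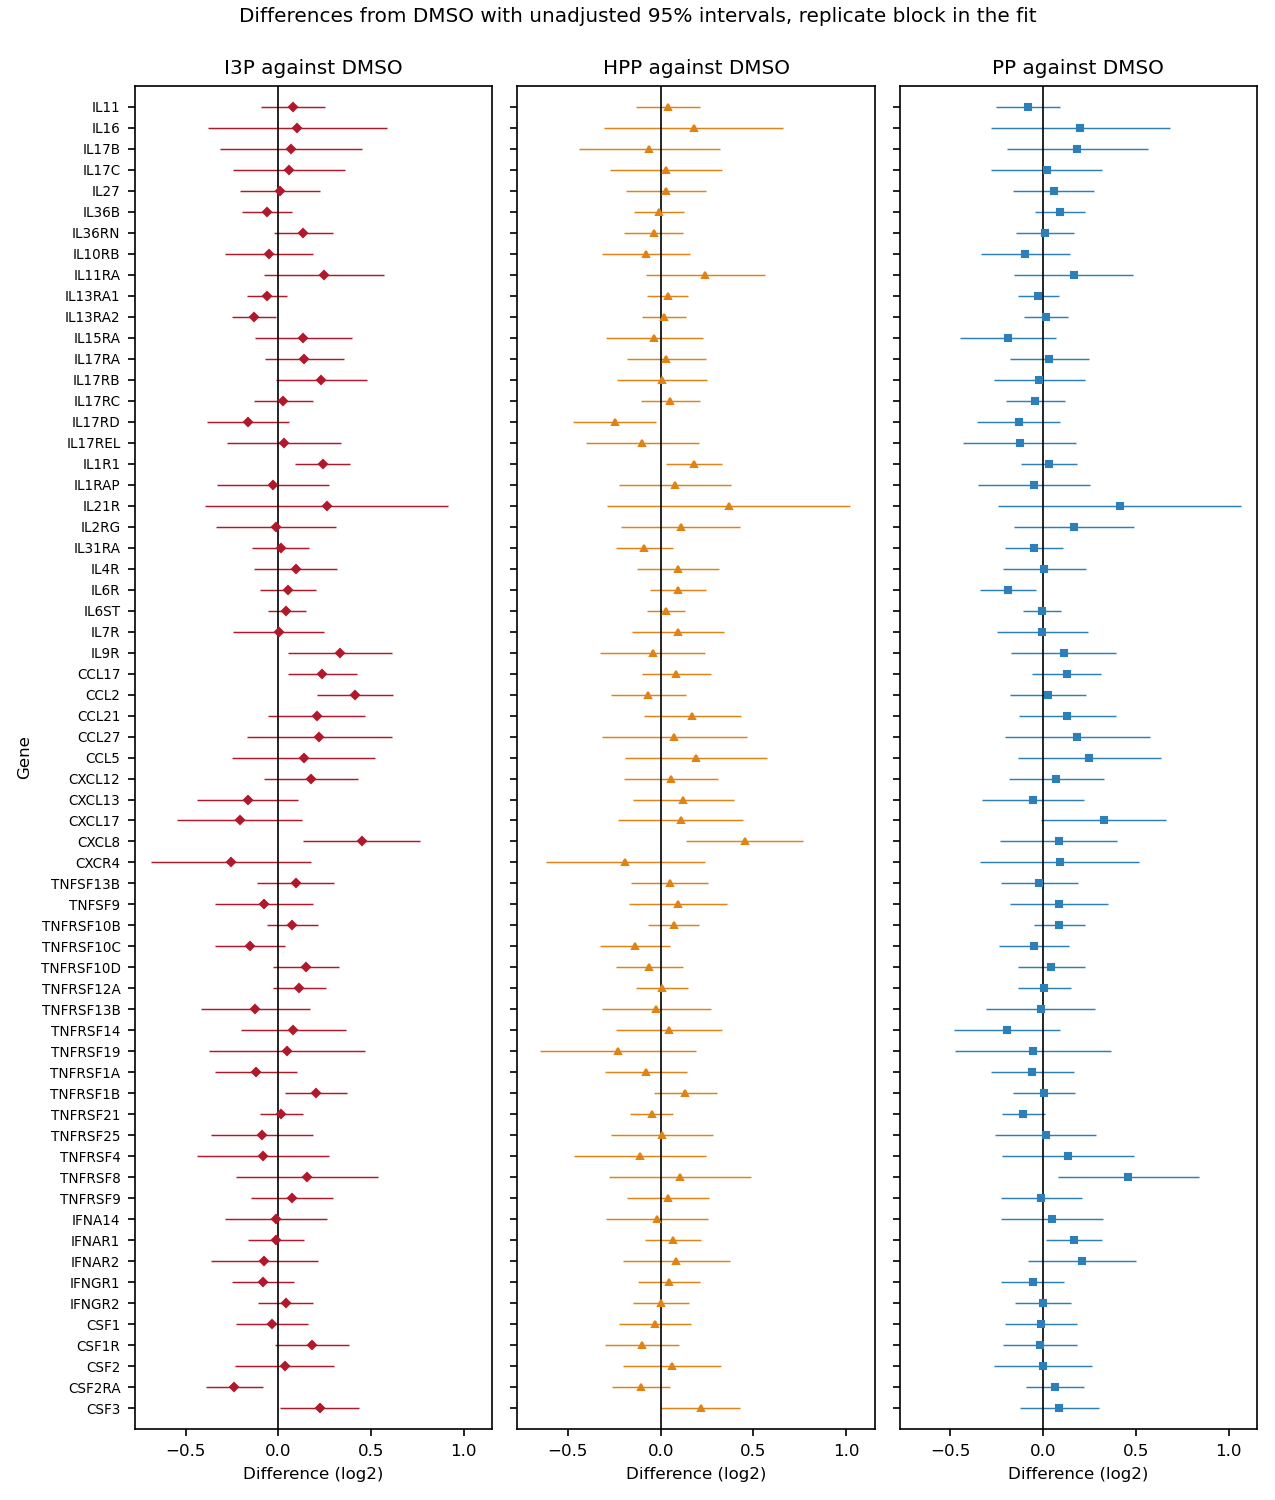
Differences from DMSO (log2, horizontal axis) of the 63 members for I3P, HPP and PP, fitted with the replicate block. Points are estimates and bars are 95% intervals without adjustment for the number of genes; CCL2 (0.41) and CXCL8 (0.45) lie farthest to the right among the chemokines with I3P, and 0 members pass the adjusted threshold in any panel.

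Among the secreted members, the chemokines CCL2 and CXCL8 had the highest I3P differences. For CCL2 the DMSO arrays numbered 1 to 5 read 8.82, 8.89, 7.04, 8.94 and 8.82. Those with I3P read 9.46, 9.18, 7.51, 9.34 and 9.10. All 5 I3P arrays lay above the DMSO array of their own number, by 0.27 to 0.63, yet the groups overlapped because the arrays numbered 3 were low in both. The mean difference was 0.41 (SE 0.096 with the block, 95% interval 0.21 to 0.62, limma adjusted p = 0.0688). With HPP the CCL2 arrays read 8.51, 8.78, 7.02, 9.14 and 8.74, and with PP 8.84, 8.62, 7.39, 9.16 and 8.63. CCL2 differed from DMSO by -0.07 with HPP and by 0.03 with PP, and the same-number differences had mixed signs for both.

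CXCL8 read 9.80, 9.79, 8.17, 9.97 and 9.23 with DMSO and 10.33, 10.26, 8.53, 10.503 and 9.60 with I3P. Each I3P array again exceeded its DMSO partner, by 0.36 to 0.53, and the groups overlapped. This gave a mean difference of 0.45 (SE 0.15, limma adjusted p = 0.246 with the block). With HPP the arrays read 11.18, 9.86, 8.60, 10.27 and 9.32, a mean difference of 0.45 (limma adjusted p = 0.902 with the block). The HPP array numbered 1 stood 1.38 above its partner and the other 4 stood 0.07 to 0.44 above theirs, so the HPP mean rested largely on that array. PP gave 10.00, 9.76, 8.47, 10.16 and 8.996, and a difference of 0.08. When that HPP array was left out, the I3P difference of CXCL8 was unchanged at 0.45 and its adjusted p became 0.00746 with the block, and that of CCL2 became 0.039. CCL2 also passed without the PP array numbered 3 (adjusted p = 0.0486), so both calls depend on which arrays estimate the spread. Over all 30 settings with the block, the adjusted p of CXCL8 ran from 0.00746 to 0.586, and over the 29 available for CCL2 from 0.039 to 0.204.

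Over the 9 chemokines, 7 lay above 0 with I3P, with a median of 0.21. CCL17, a ligand that draws T cells, stood at 0.24. CXCL17, a mucosal chemokine, and CXCL13, the B cell attractant, lay below 0. HPP put 8 of the 9 above 0 with a median of 0.11, and PP 8 with a median of 0.13. Each of these medians uses the same 5 DMSO arrays. CSF3, the granulocyte colony stimulating factor, averaged 12.55 ± 0.41 (SD, n = 5) with DMSO, 12.78 ± 0.53 with I3P, 12.77 ± 0.57 with HPP and 12.64 ± 0.36 with PP. Its differences of 0.22 with I3P and 0.22 with HPP did not pass (limma adjusted p = 0.431 and 0.989 with the block).

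Among the receptors, IL1R1, the signalling receptor of interleukin-1, read 10.02, 9.60, 9.79, 9.72 and 9.78 with DMSO and 10.05, 10.08, 9.94, 10.01 and 10.03 with I3P. The HPP arrays read 10.08, 9.95, 9.91, 10.02 and 9.87, and the PP arrays 9.96, 9.88, 9.94, 9.72 and 9.57. All 5 I3P and all 5 HPP arrays lay above their DMSO partners, and the groups overlapped. The mean differences were 0.24 with I3P (limma adjusted p = 0.174 with the block and 0.958 without) and 0.18 with HPP (0.944 with the block). IL1RAP, the partner chain that interleukin-1 type receptors share, averaged 8.87 ± 0.27 (SD, n = 5) with DMSO, 8.84 ± 0.27 with I3P, 8.95 ± 0.33 with HPP and 8.82 ± 0.16 with PP.

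CSF2RA, the ligand-binding chain of the receptor for granulocyte-macrophage colony stimulating factor, read 9.78, 9.79, 9.97, 10.40 and 10.59 with DMSO. Its I3P arrays read 9.47, 9.57, 9.66, 9.98 and 10.66. The first 4 lay below their partners and the array numbered 5 above, which gave a mean of -0.24 (limma adjusted p = 0.196 with the block). The HPP arrays read 9.76, 9.52, 9.81, 10.31 and 10.58, and the PP arrays 9.96, 9.92, 9.88, 10.46 and 10.63. In each of the 4 groups the arrays numbered 4 and 5 were the highest, and the groups overlapped. IL6R, the receptor chain that binds interleukin-6, read 8.36, 8.54, 8.46, 8.30 and 7.76 with DMSO and 8.25, 8.19, 8.26, 8.12 and 7.66 with PP. All 5 PP arrays lay below their partners, by 0.10 to 0.36, with a mean of -0.19 (limma adjusted p = 1.0 with the block). TNFRSF8, the lymphocyte activation receptor CD30, had the highest PP difference, 0.46, with 4 of 5 arrays above their partners (limma adjusted p = 1.0 with the block). IFNAR1, a chain of the receptor for type I interferons, averaged 10.26 ± 0.12 (SD, n = 5) with DMSO, 10.25 ± 0.12 with I3P, 10.33 ± 0.12 with HPP and 10.43 ± 0.08 with PP. IL9R, a chain of the interleukin-9 receptor, read 8.73, 8.21, 8.57, 8.06 and 8.25 with DMSO and 8.69, 8.75, 8.499, 8.73 and 8.82 with I3P, a difference of 0.33 with 3 of 5 arrays above their partners (limma adjusted p = 0.36 with the block). IL11RA, the interleukin-11 binding chain, averaged 7.95 ± 0.19 (SD, n = 5) with DMSO, 8.19 ± 0.27 with I3P, 8.19 ± 0.36 with HPP and 8.11 ± 0.25 with PP. IL17RD, an interleukin-17 receptor relative that also restrains growth factor signals, averaged 8.59 ± 0.16 with DMSO and 8.34 ± 0.31 with HPP, lower in 5 of 5 pairs (limma adjusted p = 0.944 with the block). None of IL9R, IL11RA and IL17RD passed in these comparisons, and their groups overlapped.

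CXCR4, the receptor of CXCL12 and the sole chemokine receptor among the members, differed by -0.26 with I3P, -0.19 with HPP and 0.09 with PP.

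**Figure D2:**
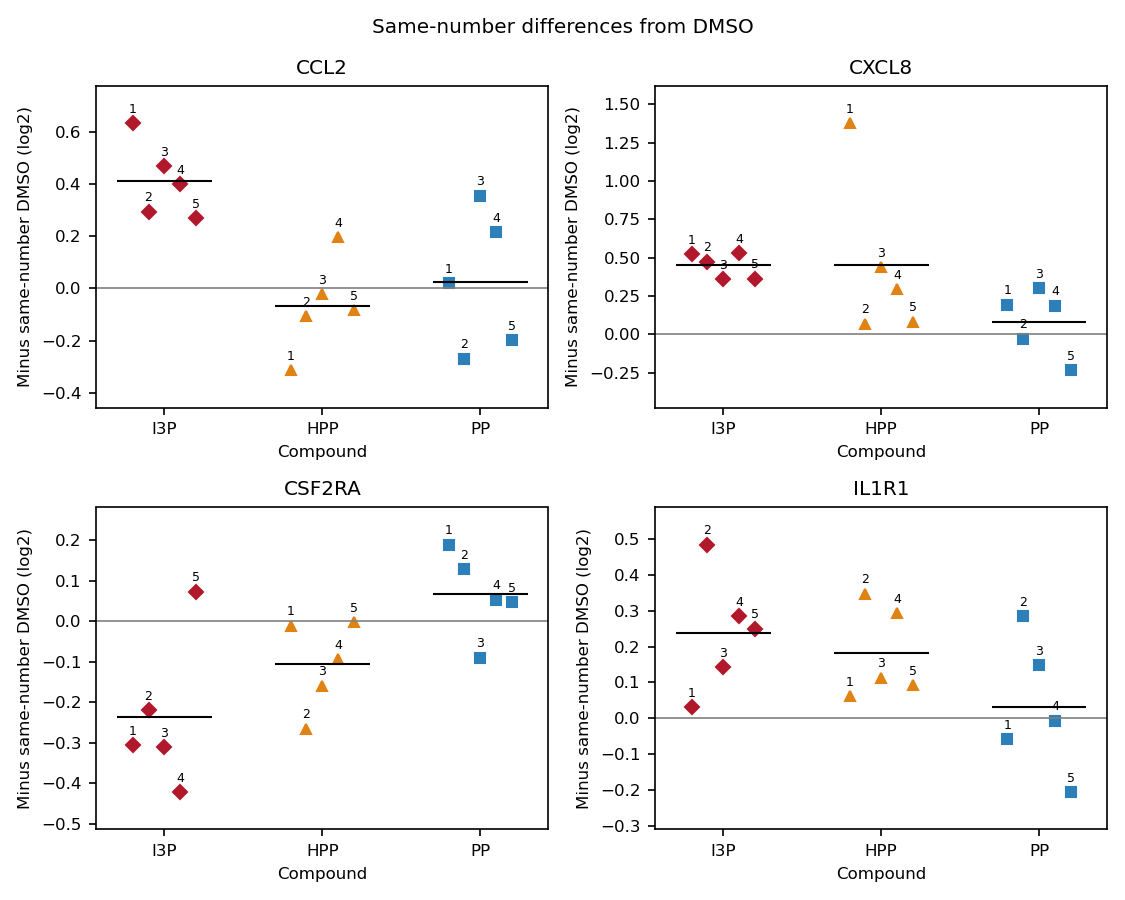
Difference of each treated array from the DMSO array of the same replicate number (log2, vertical axis) for CCL2, CXCL8, CSF2RA and IL1R1, by compound; digits give the replicate number and bars the mean of 5 pairs. All 5 I3P points lie above 0 for CCL2, CXCL8 and IL1R1, and the HPP point numbered 1 of CXCL8, at 1.38, lies far above the other 4.

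The 3 pairs of compounds, which differ in the ring alone, were compared at the same dose and time. No member separated any pair past the threshold. Of 63 members, 0 passed for I3P against HPP without the block (0% of all genes) and 0 with it (0.115% of all genes). For the indole against the phenyl ring, I3P against PP, 0 passed without the block (0.0886% of all genes) and 0 with it (0.904%). For the hydroxyl group, HPP against PP, the counts were 0 (0%) and 0 (0.0266%). An unadjusted p under 0.05 with the block was reached by 7 members (11.1%, against 9.74% of all genes), 13 (20.6%, against 12.6%) and 3 (4.76%, against 5.27%).

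For the indole against the hydroxyphenyl ring, CCL2 was farthest apart. I3P exceeded HPP in all 5 same-number pairs, by 0.21 to 0.95, with a mean of 0.48 (95% interval 0.28 to 0.68, limma adjusted p = 0.0775 with the block). IL9R, an interleukin-9 receptor chain, stood 0.38 higher with I3P in 5 of 5 pairs (limma adjusted p = 0.382 with the block). CSF1R, the receptor of macrophage colony stimulating factor, stood 0.29 higher (0.328). CXCL8 did not separate these compounds, with a mean of 0.00, but its pairs ran from -0.86 to 0.40. The median over the members was 0.01.

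For the indole against the phenyl ring, CSF2RA had the smallest p. It was lower with I3P than with PP in 4 of 5 pairs, with a mean of -0.30 (95% interval -0.46 to -0.15, limma adjusted p = 0.0675 with the block). It passed without the I3P array numbered 5 (-0.37, adjusted p = 0.0179) and without all arrays numbered 5 (-0.38, adjusted p = 0.0351). CCL2 was 0.39 higher with I3P in 5 of 5 pairs (limma adjusted p = 0.0738 with the block), and 0.46 higher (adjusted p = 0.0389) without the PP array numbered 3. CXCL8 was 0.37 higher in 5 of 5 pairs (adjusted p = 0.319). Without the HPP array numbered 1 the adjusted p of this pair was 0.0451 for CCL2 and 0.034 for CXCL8. CXCL17 read 8.70, 8.81, 8.19, 8.54 and 7.82 with I3P and 9.10, 9.01, 8.93, 8.56 and 9.14 with PP. It was lower with I3P by 0.54 on the log2 scale, in 5 of 5 pairs, mostly through the arrays numbered 3 and 5, whose pairs stood at -0.74 and -1.32 (limma adjusted p = 0.146 with the block and 0.539 without). IL6R was 0.24 higher with I3P than with PP in 5 of 5 pairs (0.139 with the block).

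For the ring hydroxyl, IL6R was 0.28 higher with HPP than with PP in 5 of 5 pairs (95% interval 0.13 to 0.43, limma adjusted p = 0.441 with the block). CXCL8 was 0.37 higher in 5 of 5 pairs, 1.18 of it in the pair numbered 1 and 0.10 to 0.32 in the others (limma adjusted p = 0.881 with the block). TNFRSF8 was lower by 0.36 on the log2 scale in 5 of 5 pairs (0.896). The interval lay within a 1.5-fold change for 56 members in HPP against PP, 57 in I3P against PP and 58 in I3P against HPP, all with the block. A missed threshold does not show that the compounds act alike on the remaining members.

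Replicate number, unlike treatment, separated many of the members. Over all 20 arrays the range of a member was 0.94 at the median, from 0.33 to 3.14 (log2), against 0.63 for all genes. A range above 1 was found in 26 members (41.3%), against 15.6% of all genes, and above 2 in 5 (7.94%), against 1.05%. The replicate number took a median of 54.8% of the within-group sum of squares over the members and 54% over all genes, where 25% would be expected with no such effect. In the F-test of the number beside the treatment, 33 of 63 members (52.4%) passed, against 46.5% of all genes, so the share that passed was close to the background. The wider ranges of the members were not tested against those of other genes.

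**Figure D3:**
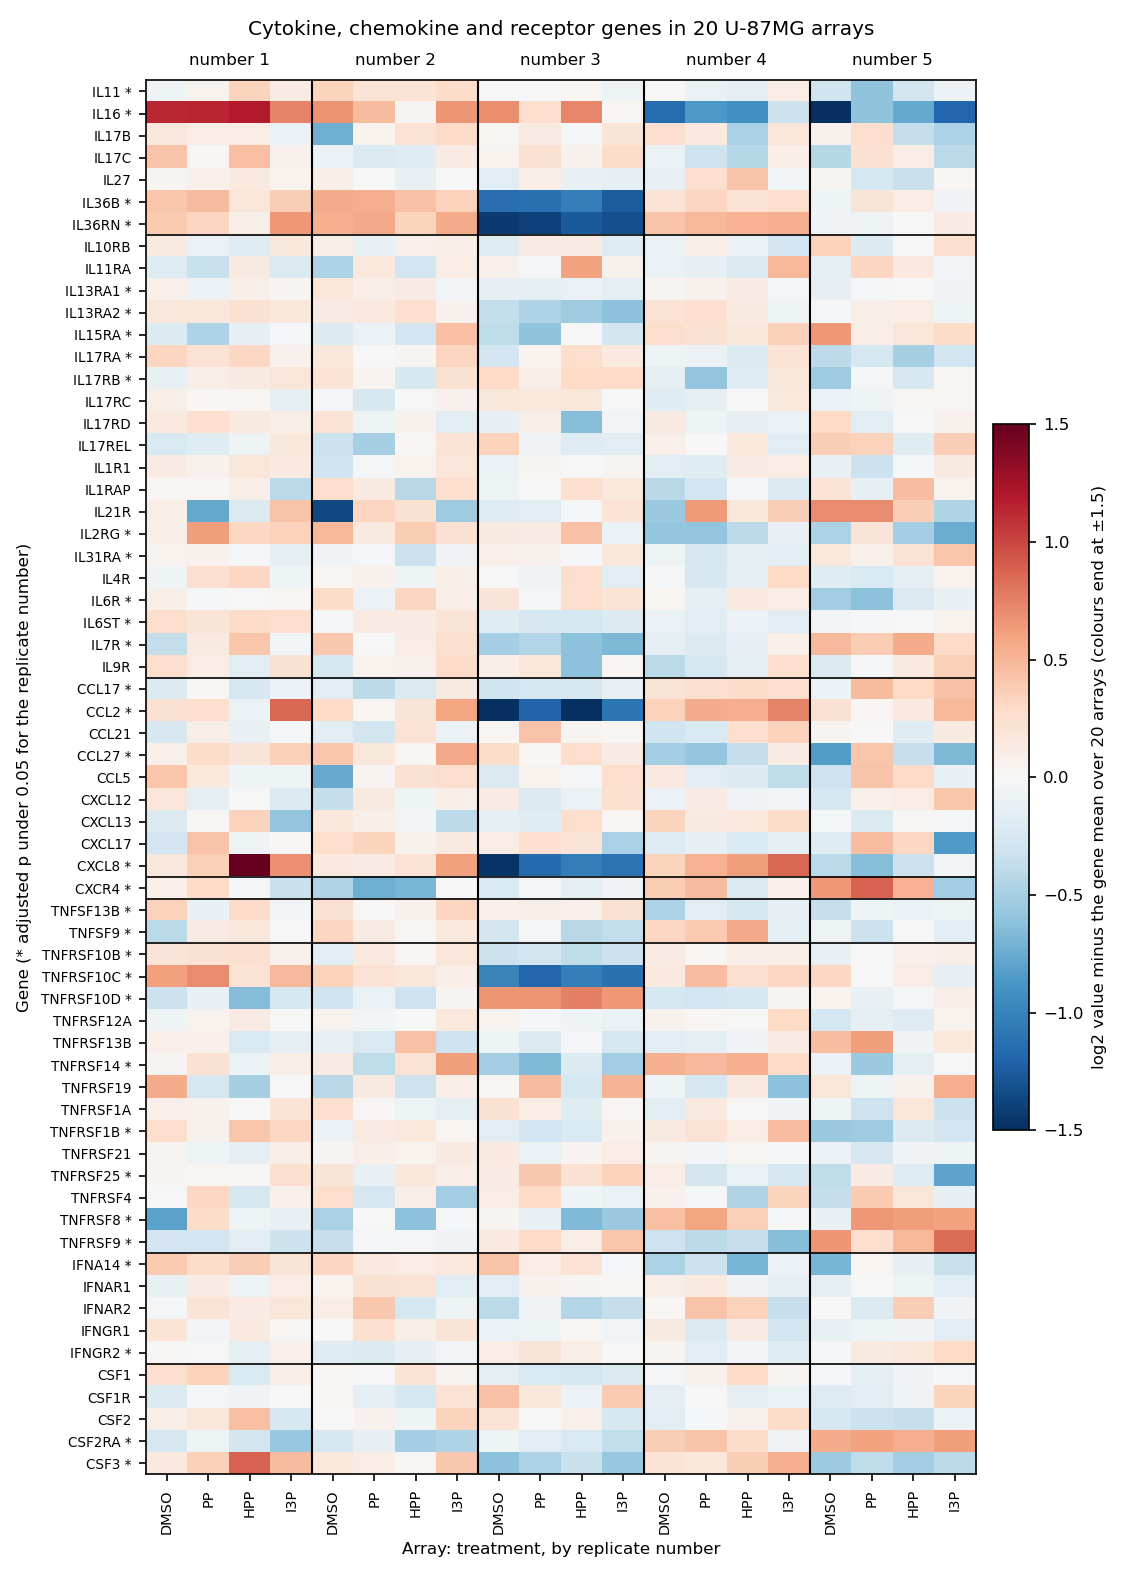
Value of each of the 63 members in each of 20 arrays minus the gene's mean (log2, colour, ends at -1.5 and 1.5), with arrays ordered by replicate number and treatment and genes by role. Asterisks mark the 33 members past the F-test of the replicate number; columns of number 3 are blue for CCL2, CXCL8, IL36B, IL36RN and TNFRSF10C under all 4 treatments, while no treatment column shows a common shade.

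By role, the number test was passed by 4 of 7 interleukins, 10 of 20 interleukin receptor genes, 4 of 9 chemokines, the chemokine receptor CXCR4, both TNF superfamily ligands and 8 of 14 TNF superfamily receptors. It was passed by 2 of 5 genes of the interferon class and 2 of 5 of the colony stimulating factor class, and by 46.5% of all genes. The classes are small, and differences between them were not tested. Of the 30 members that did not pass, several serve the same pathways, among them IL1R1, IL1RAP, IFNAR1, IFNAR2, IFNGR1 and TNFRSF1A, the main receptor of TNF. Among the TNF superfamily ligands, TNFSF9, which binds 4-1BB, averaged 8.21, 8.39, 7.96, 8.52 and 8.09 in numbers 1 to 5 (limma adjusted p = 0.0227). TNFSF13B, the B cell survival factor BAFF, averaged 9.16, 9.19, 9.16, 8.79 and 8.90 (adjusted p = 0.016). CXCR4 averaged 8.67, 8.20, 8.55, 8.84 and 9.04 (adjusted p = 0.0452), and CCL27, a skin chemokine, 9.71, 9.78, 9.66, 9.15 and 9.12 (adjusted p = 0.026). IFNGR2, a chain of the interferon gamma receptor, averaged 10.31, 10.19, 10.43, 10.24 and 10.47 (adjusted p = 0.0255). The means of each of these 5 genes differed between numbers by less than 1 log2 unit. CXCR4 and IFNGR2 were both highest in number 5 and lowest in number 2, TNFSF13B and CCL27 were both highest in number 2, and TNFSF9 was highest in number 4. TNFRSF1A averaged 9.98, 9.91, 9.94, 9.87 and 9.76 in numbers 1 to 5 (limma adjusted p = 0.514). As each number holds the 4 treatments once, these tests measure the differences between numbers against the spread between the arrays of a number. In bulk RNA, fewer cells expressing a gene and less RNA per cell cannot be told apart.

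The arrays numbered 3 were the lowest for 2 chemokines, 2 interleukins of the interleukin-36 type and a decoy receptor. Against the mean of the other numbers, 19 members were lower (30.2%, against 15.8% of all genes) and 6 were higher (9.52%, against 15.1%). That this number reads low for cytokines was known when the members were chosen, so these shares are a description. All 4 arrays of number 3 lay below all 16 others for 9 members (14.3%, against 4.33% of all genes) and above them for 1 member (1.59%, against 4.89%). The 9 were CCL2, CXCL8, IL36B, IL36RN, TNFRSF10C, TNFRSF10B, IL13RA2, IL6ST and IL7R, and the 1 above was TNFRSF10D.

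CCL2 stood at 7.04 with DMSO, 7.02 with HPP, 7.51 with I3P and 7.39 with PP in number 3, and between 8.51 and 9.46 in the other 16 arrays. The difference was -1.70 (SE 0.085, 3.25-fold, limma adjusted p = 4.12e-10). Without number 3, CCL2 did not pass the F-test of the remaining numbers (adjusted p = 0.112). Number 4 then stood at 0.28 against the others (SE 0.086, limma adjusted p = 0.0642), and numbers 1, 2 and 5 at -0.04, -0.09 and -0.15. None of these passed, but a missed threshold does not show that the remaining numbers were alike. In number 3, CXCL8 stood at 8.17 with DMSO, 8.60 with HPP, 8.53 with I3P and 8.47 with PP, against 8.996 to 11.18 elsewhere. With all arrays its difference was -1.497 (SE 0.13, adjusted p = 2.82e-07). Of the other chemokines, CCL17 was lower by 0.29 on the log2 scale (adjusted p = 0.0104), and CCL5, an attractant of T cells, did not pass at 0.03 (adjusted p = 0.927).

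IL36B encodes the agonist interleukin-36 beta and IL36RN the antagonist of the same receptor. IL36RN stood at 7.83 with DMSO, 8.01 with HPP, 7.95 with I3P and 7.87 with PP in number 3, against 9.19 to 9.91 elsewhere, a difference of -1.69 (limma adjusted p = 2.46e-11). IL36B stood at 10.41, 10.52, 10.30 and 10.43, against 11.49 to 12.10, a difference of -1.42 (adjusted p = 2.46e-11). Agonist and antagonist were thus low in the same 4 arrays. The genes left out by the rule also had their lowest means in number 3. IL1B averaged 10.87 there against 11.04 to 12.25 in the other numbers, IL1RN 7.76 against 9.14 to 10.02, and IL6 7.499 against 8.54 to 9.46.

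The receptors of the death ligand TRAIL went apart in number 3. TNFRSF10B is a death receptor that starts apoptosis, while TNFRSF10C and TNFRSF10D bind the ligand as decoys without passing on the death signal. The decoy TNFRSF10C stood at 7.70 with DMSO, 7.68 with HPP, 7.59 with I3P and 7.51 with PP in number 3, against 8.59 to 9.41 elsewhere, a difference of -1.35 (limma adjusted p = 2.25e-09). The decoy TNFRSF10D stood at 11.40, 11.49, 11.38 and 11.40, against 10.08 to 10.83, a difference of 0.85 (adjusted p = 2.82e-07). The death receptor TNFRSF10B stood at 9.34, 9.27, 9.33 and 9.38, against 9.48 to 9.90, a difference of -0.41 (adjusted p = 4.81e-05). So the decoys were opposed to each other and neither overlapped the other 16 arrays. Whether probe sets of these related receptors share signal was not tested.

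**Figure D4:**
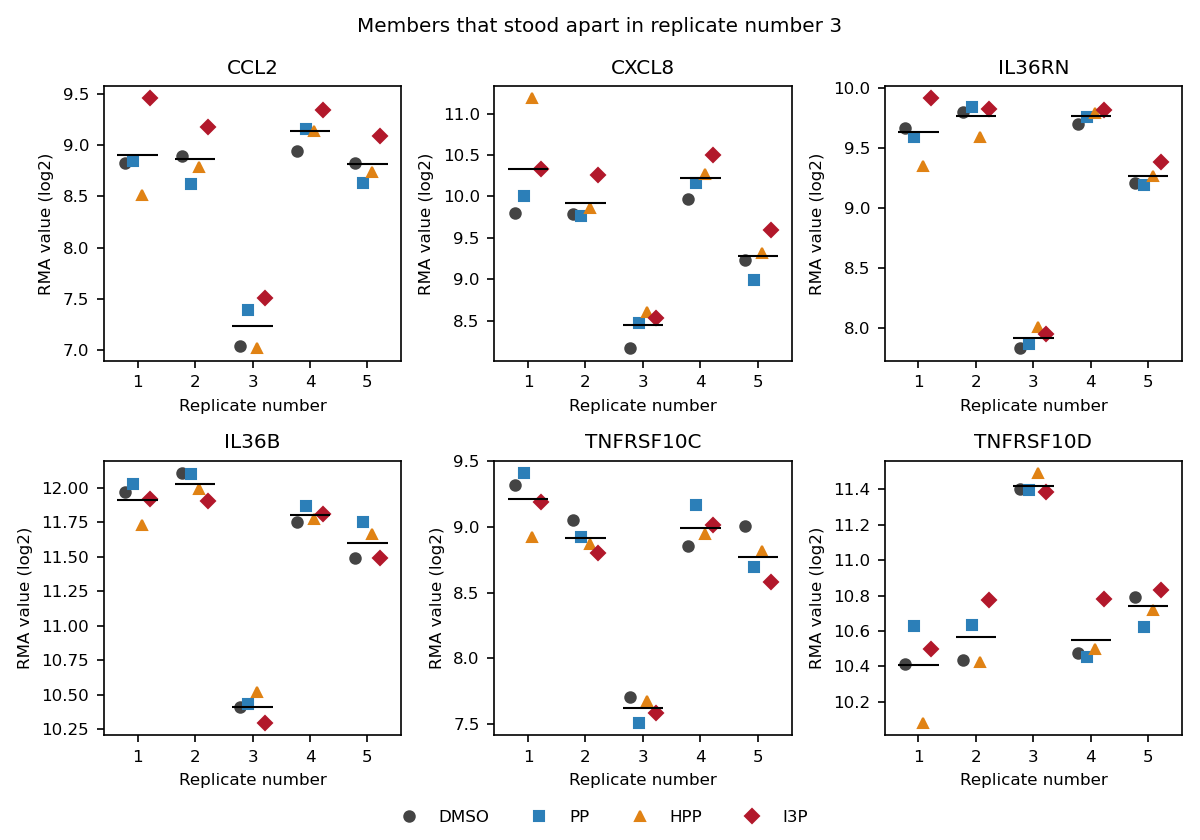
RMA value (log2, vertical axis) of CCL2, CXCL8, IL36RN, IL36B, TNFRSF10C and TNFRSF10D in every array by replicate number, with treatments by colour and shape and bars at the mean of 4 arrays. The 4 arrays of number 3 lie below all others for the first 5 genes and above all others for TNFRSF10D, whose number 3 arrays lie between 11.38 and 11.49.

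Receptor chains that pair with interleukin-6, interleukin-7 and interleukin-13 were also low in number 3. IL13RA2 stood at 10.03 with DMSO, 9.87 with HPP, 9.78 with I3P and 9.93 with PP there, against 10.33 to 10.65 elsewhere, a difference of -0.62 (limma adjusted p = 8.38e-08). Its signalling relative IL13RA1 was lower by 0.16 on the log2 scale (adjusted p = 0.0146). IL6ST, the shared signalling chain gp130 of the interleukin-6 family, was lower by 0.28 (9.55e-05), and IL6R was 0.20 higher (adjusted p = 0.0226). IL7R was lower by 0.70 (adjusted p = 7.14e-05), and IL15RA, the interleukin-15 binding chain, by 0.40 (adjusted p = 0.0106). IFNAR2 (-0.39), CSF1 (-0.27) and CSF1R (0.29) passed in this comparison without passing the F-test over all numbers. CSF3 was lower by 0.62 on the log2 scale (adjusted p = 5.28e-05), and so was TNFRSF14, a receptor of the ligand LIGHT, by 0.60 (adjusted p = 0.00107). The remaining lower members were TNFSF9, CSF2RA and TNFRSF1B, by 0.20 to 0.34, and the remaining higher ones were TNFRSF25, IL17RB and TNFRSF9, by 0.30 to 0.34.

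In number 5, 10 members were higher against the other numbers (15.9%, against 11.4% of all genes) and 13 lower (20.6%, against 15.8%). CSF2RA stood at 10.59 with DMSO, 10.58 with HPP, 10.66 with I3P and 10.63 with PP in number 5, all above the other arrays, which reached 10.46. Its difference was 0.73 (SE 0.065, limma adjusted p = 2.76e-06). It was the 1 member with all arrays of number 5 above the rest (1.59%, against 1.06% of all genes), and 0 members had all of them below (0%, against 1.63%). TNFRSF9, the T cell costimulatory receptor 4-1BB, stood at 9.86, 9.69, 10.04 and 9.45 in the same order, a difference of 0.70 (adjusted p = 6.88e-05). These overlapped number 3, where it stood between 9.31 and 9.62.

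Lower in number 5 were IL16, CSF3, TNFRSF1B, IL2RG, IL6R, IL17RA, CXCL8 and IL11 among others. IL16, whose product draws CD4+ cells, had the widest range of all members. It stood at 9.78, 9.85, 9.40 and 9.79 in number 1 with DMSO, HPP, I3P and PP. In number 4 it stood at 7.502, 7.74, 8.33 and 7.79 and in number 5 at 6.70, 7.89, 7.46 and 8.05. Numbers 2 and 3 lay between, at 8.67 to 9.38, so numbers 4 and 5 did not overlap the other 3. The differences of IL16 were 1.31 for number 1 (limma adjusted p = 0.000801), -1.01 for number 4 (0.0038) and -1.41 for number 5 (0.000135).

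CSF3 stood at 12.14 with DMSO, 12.16 with HPP, 12.29 with I3P and 12.30 with PP in number 5, and at 12.07 to 12.35 in number 3. The other 12 arrays lay between 12.70 and 13.57, so both numbers were apart from them. IL6R fell to 7.76, 8.05, 8.16 and 7.66 in number 5, against 8.12 to 8.60 elsewhere, a difference of -0.46 (limma adjusted p = 9.94e-05) with overlap. TNFRSF1B, the second TNF receptor, was lower by 0.50 on the log2 scale (adjusted p = 0.000118). IL17RA, the shared chain of interleukin-17 receptors, was lower by 0.45 (adjusted p = 0.00157), and IL2RG, the common gamma chain, by 0.48 (adjusted p = 0.0151). IL11, another cytokine that uses gp130, was lower by 0.40 (adjusted p = 0.00085). IFNA14 was lower by 0.35 (adjusted p = 0.032), and whether its probe set reads other interferon alpha genes was not tested.

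**Figure D5:**
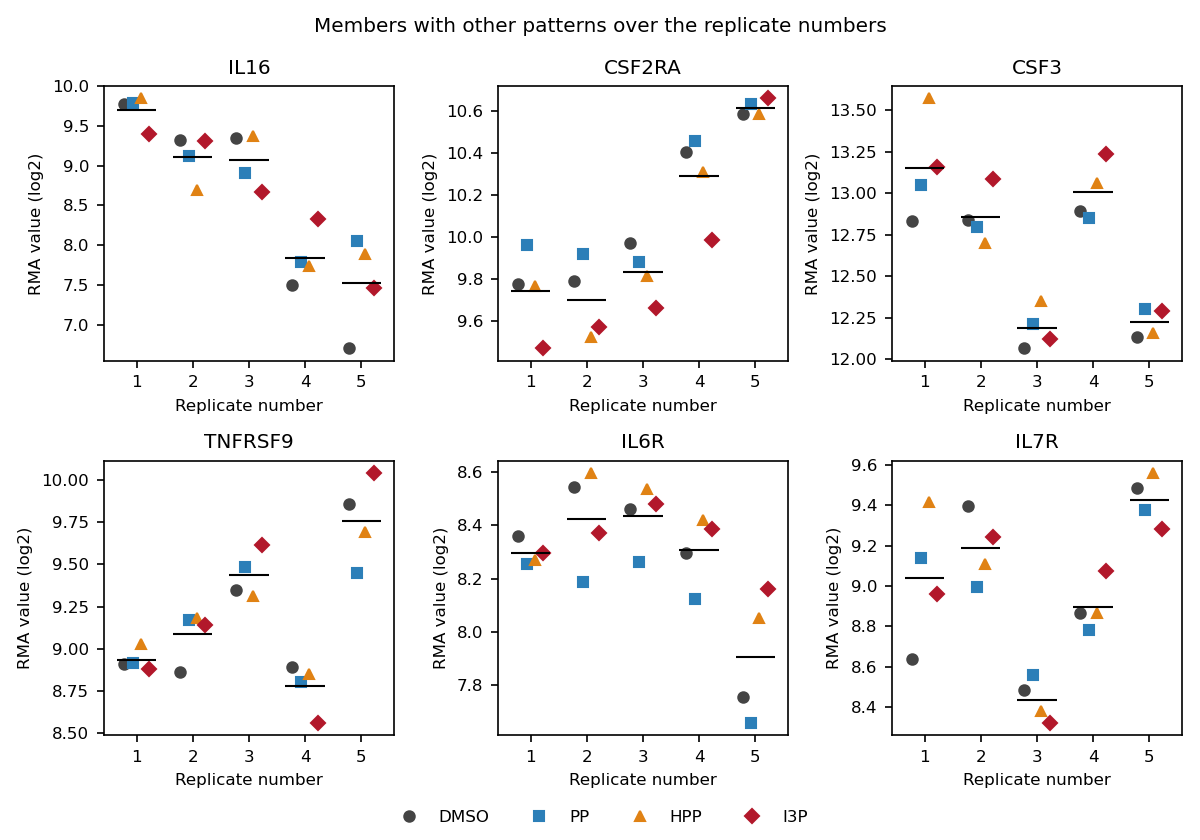
RMA value (log2, vertical axis) of IL16, CSF2RA, CSF3, TNFRSF9, IL6R and IL7R in every array by replicate number, with treatments by colour and shape and bars at the mean of 4 arrays. Numbers 4 and 5 lie low for IL16, number 5 lies highest for CSF2RA (10.58 to 10.66), and numbers 3 and 5 lie low for CSF3.

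The other numbers also differed in members, in part because number 3 stands among the numbers they are compared with. Number 1 had 12 members higher (19.0%, against 5.03% of all genes) and 3 lower (4.76%, against 4.55%). Number 2 had 5 higher (7.94%, against 1.86%) and 1 lower (1.59%, against 2.08%), and number 4 had 12 higher (19.0%, against 8.78%) and 8 lower (12.7%, against 7.22%). The comparisons were therefore repeated without number 3. The F-test was then passed by 20 members (31.7%, against 21.9% of all genes). Number 1 had 7 higher and 2 lower, where 2.8% and 3.5% of all genes passed, and number 2 had 2 and 1, where 0.727% and 1.97% passed. Number 4 had 3 and 5 (4.04% and 3.86% of all genes), and number 5 had 8 and 14 (9.06% and 12.6% of all genes). In either direction these came to 14.3%, 4.76%, 12.7% and 34.9% of the members, against 6.3%, 2.69%, 7.9% and 21.6% of all genes.

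Without number 3, CXCL8 was lower in number 5 by 0.87 on the log2 scale (limma adjusted p = 0.00132). CSF3 was lower there by 0.78 (adjusted p = 0.000209), TNFRSF1B by 0.58 (adjusted p = 0.000262) and IL16 by 1.36 (adjusted p = 0.000653). CSF2RA was then 0.71 higher in number 5 (adjusted p = 6.94e-05) and TNFRSF9 0.83 higher (adjusted p = 0.000179). CCL2 changed sign in number 5, from 0.28 to -0.15, and no longer passed (adjusted p = 0.223). IL36B stood at 0.06 in number 5 against all other numbers and at -0.31 without number 3, and TNFRSF10C at 0.09 and -0.26. For both of these genes the value passed the threshold without number 3 (adjusted p = 0.00272 and 0.0393) and did not pass with it (0.444 and 0.42).

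Markers of other cell types differed between the numbers as well. KDR, an endothelial receptor for vascular growth factor, averaged 9.55 in number 3 against 8.25 to 8.42 in the others (limma adjusted p = 1.68e-08). The mean over the 3 endothelial markers measured lay between 9.09 and 9.17 in number 3, and between 8.20 and 8.996 in the other numbers. VWF and TEK, the other endothelial markers, averaged 8.87 and 8.92 in number 3, below their means in number 1 (9.06 and 8.96) and number 2 (8.97 and 8.99), so KDR was the 1 of the 3 that was highest in number 3. VWF passed the number test as well (limma adjusted p = 0.0157), and TEK did not (0.155). ITGAM, an integrin chain of myeloid cells, averaged 9.75 and 9.59 in numbers 4 and 5 against 8.42 to 8.67 in the others (adjusted p = 2.09e-05). The other leukocyte markers did not pass. CSF1R averaged 8.895 and 8.964 in numbers 4 and 5 against 8.908 to 9.213 in the others (adjusted p = 0.0845), and PTPRC and AIF1 stood the opposite way to ITGAM. PTPRC, the pan-leukocyte antigen CD45, averaged 7.901 and 7.82 in numbers 4 and 5 against 8.08 to 8.30 (adjusted p = 0.096), and AIF1, a macrophage protein, 7.75 and 7.74 against 8.14 to 8.32 (adjusted p = 0.055). The mean over the 4 leukocyte markers lay between 8.25 and 8.70 in every number. The mean over the 7 glioblastoma and mesenchymal-like markers lay between 11.34 and 11.59. Of these, TNC, S100A10 and CD44 also passed the number test (limma adjusted p = 0.00153, 0.00607 and 0.0241), and VIM, NES, ANXA1 and GFAP did not. The part of the markers of any list in the differences between numbers was not tested.

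Genes that carry cytokine signals inside the cell were tested from lists, of which 37 of 41 NF-kB genes and 20 of 26 JAK-STAT genes were measured. Against DMSO, 0 genes of either list passed with any compound, with or without the block. CYLD, a deubiquitinase that restrains NF-kB, was the 1 gene past the threshold between compounds, 0.24 higher with I3P than with PP (limma adjusted p = 0.0357 with the block). The NF-kB list had medians of 0.05, 0.06 and 0.03 against DMSO with I3P, HPP and PP, where the medians over all genes were 0.000, 0.001 and -0.005.

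The F-test of the replicate number was passed by 17 of the 37 NF-kB genes (45.9%, against 46.5% of all genes) and by 13 of the 20 JAK-STAT genes (65%). Number 3 held 10 lower NF-kB genes (27%, against 15.8% of all genes) and 5 higher ones (13.5%, against 15.1%), with a median of -0.06. The lower ones included TNFAIP3 (-0.54, limma adjusted p = 1.97e-05) and TNIP1 (-0.64, adjusted p = 0.000132), which restrain the pathway. NFKBIZ (-0.63), RELB (-0.46) and NFKB2 (-0.32), which belong to the NF-kB and inhibitor families, were lower too. BIRC2, a ubiquitin ligase of TNF receptors, was 0.56 higher and RIPK1, a kinase of the same complex, 0.40 higher. NFKBIA, the classical inhibitor, was 0.23 higher. Of the JAK-STAT genes, 5 were higher (25%) and 3 lower (15%) in number 3, with SOCS3, a feedback inhibitor of gp130 signals, lower by 0.30 on the log2 scale (adjusted p = 9.53e-05).

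Of 36 cytokines and receptors with other symbols, 19 were measured. LIF, a cytokine that signals through gp130, was the 1 gene of these past the threshold in a treatment comparison. It was 0.52 higher with I3P than with DMSO (SE 0.070, limma adjusted p = 0.000846 with the block) and 0.50 higher with I3P than with PP (adjusted p = 0.0012 with the block), and it passed in neither without the block. In number 3, 9 were lower (47.4%, against 15.8% of all genes) and 2 higher (against 15.1%), with a median of -0.22. LIF was lower by 1.66 on the log2 scale (adjusted p = 1.94e-11), TSLP, an interleukin-7 like cytokine, by 1.19 (adjusted p = 6.84e-10), and OSMR, the oncostatin M receptor, by 0.52 (adjusted p = 6.2e-07). The list also differed in other numbers. In number 4, 6 of the 19 were higher (31.6%, against 8.78% of all genes) and 0 lower (against 7.22%). In number 5, 7 were higher (36.8%, against 11.4%) and 1 lower (5.26%, against 15.8%). Of the interferon-stimulated genes, 19 were measured and 0 passed with any compound. In number 3, 2 of these 19 were higher (against 15.1% of all genes) and 4 lower (21.1%, against 15.8%), with a median of -0.08, so both shares lay near those of all genes.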

How the data were processed

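The deposited table holds log2 values, which the authors computed by RMA in oligo per the submitters' processing notes. RMA corrects background, equalises the distributions of the arrays and summarises each probe set, which can compress changes of dim genes. Versions, and any filter on dim probe sets, were not given in the sources used here. It held 12770 probe sets on 20 arrays, with values from 5.506 to 14.16. The number of arrays limits the precision. Probe sets took their names from GEO's platform annotation, and symbols were updated with RefSeq's gene table (GRCh38.p14, for names). A single symbol was found for 11316, while 629 with several and 825 without any were left out. The symbol of 33 had no match and was kept. The highest-mean probe set of each gene gave 11282 genes. CXCL8 is listed as IL8 in the annotation, and 4 probe sets with several symbols that include a family name were left out.

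A limma model of group means used all 20 arrays (limma 3.58.1 in R 4.3.3, lmFit and eBayes), 2-sided, adjusted after Benjamini-Hochberg over all genes, with a threshold of 0.05. There were 6 comparisons, 3 against DMSO and 3 between compounds. Arrays with the same replicate number deviated together from their group means: all 30 such pairs correlated above 0.1 (0.163 to 0.714, median 0.431). The 120 pairs of different number and group had a median of -0.157 and reached 0.378. Deviations cancel within a group, so positive values in the first set push the second set down. The same-number correlations pair the arrays by number. A second fit held the number as a block, which left 12 residual degrees of freedom where the first had 16. The number was tested by an F-test beside the treatment, and each number against the mean of the others. No pair of arrays held identical values.

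Members, gene lists and tests were chosen with earlier results of these data known. Members described by array values or group means were those past the threshold, the 3 smallest p of a comparison with none, the 10 largest F of the number and the 2 highest means of each class. IL1RAP and TNFRSF1A were added after their values were seen. TNFRSF9, TNFRSF10B and IL7R meet none of these rules and were also described or plotted by array. Alternatives were the block, other array subsets, cyclic loess, equal medians, genes above the median level, other probe set rules and the variance prior. The fits were tested on simulated data. Promoters came from RefSeq (GRCh38.p14) and figures from matplotlib 3.10.9 in Python 3.11.15.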

Additional observations from a re-analysis of the deposited data

Results flagged for a closer look

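In each treatment group of 5 arrays, the array farthest from the others was compared with Dixon's critical value of 0.71, which chance exceeds in about 1 in 20 groups. The 31 members compared include the 10 with the largest F of the replicate number, and all 11 cases in arrays numbered 3 fall in those, so the count below is a description and is not read against that rate. Over the 31 members and 4 groups, 12 of 124 groups held such an array, 11 of them numbered 3 and 1 numbered 5. CCL2 stood apart in DMSO replicate 3 at 7.038, where the other 4 arrays lay between 8.825 and 8.942, and in I3P replicate 3 at 7.507. IL36B did so in replicate 3 with I3P at 10.296, with HPP at 10.519 and with PP at 10.43, and IL36RN in I3P replicate 3 at 7.947. The decoy receptor TNFRSF10C stood apart in DMSO replicate 3 at 7.703 and in HPP replicate 3 at 7.677. IL13RA2 was low in HPP replicate 3 at 9.869 and in PP replicate 3 at 9.934. TNFRSF10D was the 1 member high in such an array, at 11.397 in PP replicate 3 against 10.452 to 10.636 in the other PP arrays. IL6R was low in PP replicate 5 at 7.659, against 8.124 to 8.261. What sets these arrays apart was not tested.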

How the results depend on the processing

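Fitting the replicate number as a block, which pairs the arrays, left 0 members called in each of the 6 comparisons, as did the fit without it and each of its alternatives, the fits that left out an array or a number included. With the block, 1 member passed for I3P against DMSO with only the 10 arrays of I3P and DMSO in the fit, and 1 passed for I3P against PP when only genes above the median level were tested or with the trend and robust prior. Leaving out an array or number gave 0 to 2 members in both of these comparisons with the block: 2 without HPP replicate 1 in each, 1 without PP replicate 3 in each, and 1 for I3P against PP without I3P replicate 5 or without replicate 5. The other comparisons with the block stayed at 0. When only genes above the median level were tested, which keeps fewer members, the number test was passed by 17 members in place of 33. Number 3 then had 12 in place of 25, number 4 had 11 in place of 20 and number 5 had 11 in place of 23. These counts are out of fewer members and fewer genes, so they do not show a smaller share. In only the 10 arrays of DMSO and PP, the number test was passed by 21, and numbers 1 to 5 had 5, 3, 14, 5 and 14, where all arrays gave 15, 6, 25, 20 and 23. Shares over all genes are not given for this or the previous setting. Leaving out an array or number gave 20 to 35 for the number test, lowest without replicate 3. It gave 9 to 18 for number 1 (lowest without replicate 3), 3 to 15 for number 2 (3 without replicate 3 or DMSO replicate 2, 15 without replicate 1), and 17 to 28 for number 3. For number 4 it gave 8 to 21 (8 without replicate 3, 11 without HPP replicate 4, 12 without PP replicate 4, 13 without DMSO replicate 4), and for number 5 it gave 14 to 24 (14 without DMSO replicate 5). Over all genes, 46.5% passed the number test with all arrays and 21.9% without replicate 3, so the fall was not particular to the members. Shares over all genes are not given for the other fits that left out an array or number, and those counts are not read as results about the members. Without replicate 3 the sign turned for CCL2 in number 1 (-0.036, with a highest of 0.599 over the numbers left out), number 2 (-0.089 to 0.547) and number 5 (-0.153 to 0.483). It also turned for IL36B in number 4 (-0.043 to 0.493) and number 5 (-0.313 to 0.224) and for TNFRSF10C in number 5 (-0.264 to 0.266). Of the values of single members under the alternatives, 10173 kept their direction and side of the threshold, 150 no longer passed, 60 newly passed and 575 without a call changed sign. The cause was not tested. The labels do not say what a number stands for.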
